A study of Mus musculus with 10 samples.

Results

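The genes of the Runx family (Runx1, Runx2 and Runx3) and of their partner Cbfb were examined for binding of the NF-kB transcription factor subunit p65, also called RelA. The members are the entries of 4 deposited peak lists whose summit lay inside one of these 4 genes, or within 50 kb of it with no protein-coding gene nearer. They numbered 36 of 26132 entries, and after overlapping entries of a list were merged, 32 of 22980 regions. Chromatin immunoprecipitation and sequencing of p65 was done on T cells of C57BL/6 mice, taken from spleen and lymph nodes as regulatory T cells (Treg), which restrain immune responses, or as conventional T cells (Tconv). The groups were unstimulated Tconv, stimulated Tconv, unstimulated Treg and stimulated Treg, with 2 libraries each, beside 2 input libraries of chromatin mixed from all of them. Stimulation was 3 h on plate-bound antibody to CD3 with soluble antibody to CD28, with IL-2 at 2 ng/ml for Tconv and 10 ng/ml for Treg, so cell type and IL-2 dose cannot be told apart in the stimulated lists. The culture of the unstimulated cells and the age of the mice were not given, and peak lists hold no expression by which the cell labels could be checked.

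Runx proteins bind DNA through a conserved Runt domain, and Cbfb, which does not bind DNA itself, is the shared subunit that strengthens this binding. In T cells, Runx1 and Runx3 with Cbfb act in thymocyte development, in silencing of Cd4 and in cytokine gene control, and Runx complexes with Cbfb help to maintain Foxp3 in Treg. Runx2 is best known as the regulator of bone formation. Runx genes of mammals are transcribed from a distal and a proximal promoter that give proteins with different N termini.

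After stimulation, p65 regions were listed at all 4 genes in both cell types, and most of them lay at Runx1. Unstimulated Tconv had 3 regions (1 each at Runx1, Runx2 and Cbfb) and unstimulated Treg had 4 (2 at Runx1, 1 each at Runx2 and Cbfb). Stimulated Tconv had 9 regions, with 5 at Runx1, 2 at Runx3 and 1 each at Runx2 and Cbfb. Stimulated Treg had 16 regions, with 10 at Runx1, 3 at Runx2, 2 at Runx3 and 1 at Cbfb. Runx3 was the only one of the 4 genes without a region in either unstimulated list. This count depends on the rule, as does the presence of Runx2 in the stimulated Tconv list. The single Runx2 region in these lists lay at the start of Supt3, a gene that overlaps Runx2. Given to Supt3 instead, it would leave Runx2 too without an unstimulated region. Over all 21883 protein-coding genes, 12.5% had a region in the Tconv list and 13.4% in the Treg list before stimulation, and 16.5% and 25.2% after it. The counts also follow the lengths of the lists. Among the 2961 strongest regions of each list, these genes had 3 in unstimulated Tconv and 4 in each other list.

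When the 4 lists were merged, these regions formed 17 of 11923 sites. Of the 17 sites, 8 were in the stimulated Treg list alone, against 41.1% of all sites, and 4 were in both stimulated lists and neither unstimulated list, against 27.5% of all sites. A further 3 were in all 4 lists, against 13.8% of all sites, and these were 1 site each at Runx1, Runx2 and Cbfb. The remaining pair was a Runx1 site in every list but unstimulated Tconv (such sites were 3.16% of all) and a Runx3 site in stimulated Tconv alone (1.31% of all). Each list is 1 set of peaks from both libraries, and the values therefore carry no replicate error. Fold enrichments, the authors' height of a summit over its local background, are set side by side across lists as listed, since the depth of the libraries is unknown and a difference between lists is not a measured change.

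**Figure D1:**
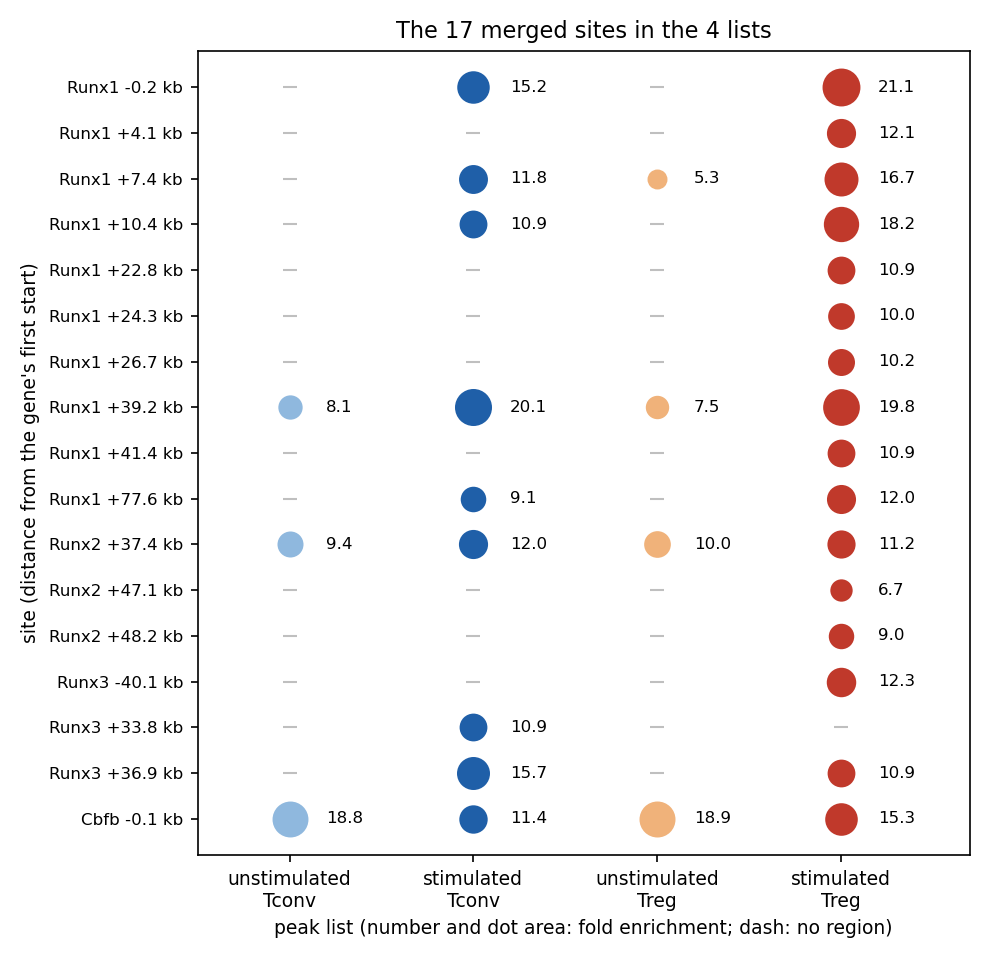
Each row is 1 of the 17 merged sites, named by its gene and its distance in kb from the gene's first start, and each column is 1 peak list. Dot area and the number beside it give the fold enrichment of the strongest summit, and a dash marks a list without a region. The Runx1, Runx2 and Cbfb rows with 4 dots are the 3 sites in all lists, and 8 rows have a dot in stimulated Treg alone.

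Runx1 (chromosome 16, 92601466 to 92826074 of mm10, minus strand) is the family member whose loss of function is linked to leukaemia and thrombocytopenia. RefSeq's promoter table gives it a first start at the upstream end of the gene, the distal promoter, and a second start 128.7 kb further on. All 10 of its sites lay at the first start or between both starts, and no list had a region between the second start and the end of the gene. In stimulated Treg the summit nearest to the second start was 51.2 kb away.

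The distal promoter of Runx1 carried its strongest region in stimulated Treg. The summit there was 21.1-fold over background and lay 206 bp before the first start. In stimulated Tconv the summit was 15.2-fold and lay 239 bp before it, and neither unstimulated list had a region. The Tconv region spanned 4022 bp and joined 3 summits, of which the other two were 9.71-fold and 7.75-fold. The 250 bases before the first start (chr16:92826075-92826324, minus strand, from RefSeq at GRCm38.p6) are shown because both summits fall within them, with the stretch from one summit to the other in capitals.
Runx1: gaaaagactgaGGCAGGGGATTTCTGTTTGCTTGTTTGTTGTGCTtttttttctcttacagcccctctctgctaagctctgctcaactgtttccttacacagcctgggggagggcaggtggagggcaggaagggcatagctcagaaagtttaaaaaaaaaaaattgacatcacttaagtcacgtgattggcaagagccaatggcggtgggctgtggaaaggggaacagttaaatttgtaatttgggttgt

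The NF-kB consensus of 10 letters, searched on both strands, had no exact match in the 300-base window of this promoter or in any of the 6 windows that the table holds for the 4 genes. It was found in 9.25% of the 21262 windows of protein-coding genes, and in 12.0% of the 2710 windows with a stimulated Treg summit. Allowing 1 letter to differ, a search added after the sequence was seen, gave 1 match in the Runx1 window, GGGGATTTCT, from 235 to 226 bases before the start, inside the capitals. Such near matches were in 66.8% of all windows and in 78.3% of those with a stimulated Treg summit, so most promoters hold one. Counted on both strands, the Cbfb window, with a summit in all 4 lists, held 0, as did the first Runx3 window. The Runx2 window and the second windows of Runx1 and Runx3, none with a summit, held 2, 3 and 5. A match of letters is a description of the window and not a measured binding site.

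The site 39.2 kb after the first start was the Runx1 site listed in all 4 lists. Its summit was 8.12-fold in unstimulated Tconv, 7.47-fold in unstimulated Treg, 20.1-fold in stimulated Tconv and 19.8-fold in stimulated Treg. The 4 summits lay within 63 bp of each other. Its value was near the middle of the unstimulated lists, where 47.1% of Tconv regions and 40.1% of Treg regions were lower. In the stimulated lists it stood higher, above 81.9% of Tconv and 79.9% of Treg regions. Both stimulated regions held a further summit closer to the first start, with 14.4-fold in Tconv and 16.6-fold in Treg.

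The site 7.42 kb after the first start was the single region at these genes that unstimulated Treg had and unstimulated Tconv lacked. It was 5.26-fold in unstimulated Treg, where 4.58% of the list was lower, and its −log10 p was 20.5 in a list that reaches down to 15.1. After stimulation it was listed in both cell types, with 11.8-fold in Tconv and 16.7-fold in Treg, and the 3 summits lay within 20 bp. The unstimulated Tconv list, which lacked it, reaches down to a −log10 p of 13.3. That list was also filtered for reproducibility, so this value need not be its cut-off. Why the site was absent there was not tested.

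The other Runx1 sites were listed after stimulation alone. The site at 10.4 kb was 10.9-fold in stimulated Tconv and 18.2-fold in stimulated Treg, with summits 2 bp apart. The site at 77.6 kb was 9.05-fold and 12.0-fold, with summits 19 bp apart. A group of 5 sites was listed in stimulated Treg only, at 4.09 kb (12.1-fold), 22.8 kb (10.9-fold), 24.3 kb (10.0-fold), 26.7 kb (10.2-fold) and 41.4 kb (10.9-fold). These 5 values were close together, and 4 of them were below the 5 Runx1 values that stimulated Treg shared with stimulated Tconv, which ran from 12.0 to 21.1-fold.

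**Figure D2:**
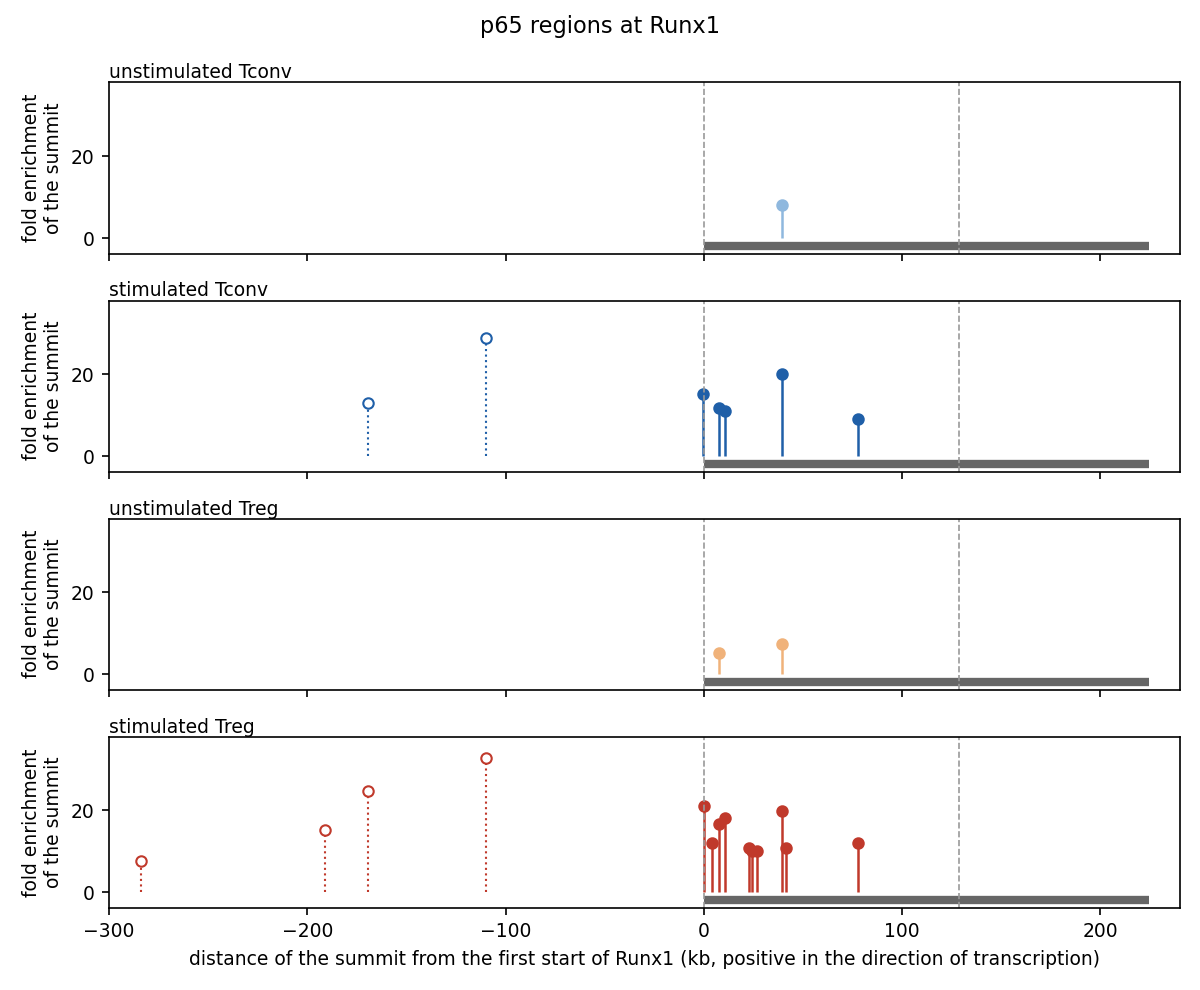
Summits at Runx1 in the 4 lists, plotted by distance in kb from the first start (0, dashed) in the direction of transcription, with height showing fold enrichment. The grey bar is the gene body and the second dashed line is the second start. Filled points are regions within the 50 kb limit, open points are regions farther upstream whose nearest protein-coding gene is still Runx1. Filled points cluster between the starts, and the tallest open points stand 109.9 kb upstream in both stimulated lists.

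Runx1 held more regions than most genes. With 10 regions in stimulated Treg it was among the 77 genes (0.352% of 21883) with at least as many, and with 5 in stimulated Tconv it was among 105 such genes (0.480%). Inside its body it had 4.01 stimulated Treg regions per 100 kb, where all protein-coding gene bodies together had 0.576. Ripor2 was the 1 gene with the same number of regions as Runx1 in each of the 4 lists. Runx2 shared its counts with 30 other genes and Runx3 with 78. In stimulated Treg, 4.17% of genes had at least as many regions as Runx2, 8.09% as Runx3 and 25.2% as Cbfb.

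The 50 kb limit left out 4 upstream sites, within 400 kb, for which Runx1 was the nearest protein-coding gene. The closest, 109.9 kb before the first start, was 32.9-fold in stimulated Treg and 28.9-fold in stimulated Tconv. Both values exceeded those of every region within the limit in the same list, and the stimulated Treg region stood above 93.1% of its list. The next, 169.5 kb upstream, was 24.7-fold in stimulated Treg and 13.1-fold in stimulated Tconv. Farther regions at 191.1 kb (15.1-fold) and 283.8 kb (7.57-fold) were in stimulated Treg alone. None of the 4 had a counterpart in an unstimulated list. At the limit itself, the outermost region counted was one 40.1 kb from Runx3 with 12.3-fold in stimulated Treg. Which gene a distant region acts on was not tested.

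Runx3 (chromosome 4, 135120645 to 135177990, plus strand) is the member known for the CD8 lineage and for type 1 helper cells. Its first start is at the beginning of the gene and its second start is 31.9 kb further on. The lists differed in which Runx3 regions they held. A site 36.9 kb after the first start, 4.96 kb past the second, was listed in both stimulated lists, with 15.7-fold in Tconv and 10.9-fold in Treg and summits 5 bp apart. The region around it spanned 1906 bp in Tconv and 403 bp in Treg.

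A site 33.8 kb after the first start of Runx3, 1.87 kb past the second, was in the stimulated Tconv list alone, with 10.9-fold and a −log10 p of 47.7. It was the 1 stimulated Tconv region at the 4 genes without a stimulated Treg counterpart. That share, 11.1% of 9 regions (95% Wilson interval 1.99 to 43.5%), compares with 4.15% of all 5734 stimulated Tconv regions. The site 40.1 kb before the first start was in the stimulated Treg list alone. Neither promoter window of Runx3 held a summit in any list.

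Runx2 (chromosome 17, 44495987 to 44814797, minus strand) shares 37.7 kb of its upstream end with Supt3, a gene on the opposite strand that encodes a subunit of SAGA-type coactivator complexes. The region listed for Runx2 in all 4 lists lay at the start of Supt3, and 37.4 to 37.5 kb after the first start of Runx2. Its summit was 9.42-fold in unstimulated Tconv, 9.96-fold in unstimulated Treg, 12.0-fold in stimulated Tconv and 11.2-fold in stimulated Treg. From the Supt3 start of the promoter table, the summits lay 17, 16 and 1 bp before it in unstimulated Tconv, unstimulated Treg and stimulated Treg, and 71 bp after it in stimulated Tconv. Counting a summit inside a pair of genes for the gene with the nearer end gives this region to Supt3, which leaves Runx2 with no region in 3 of the 4 lists.

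The 250 bases before that Supt3 start (chr17:44776916-44777165, plus strand, from RefSeq at GRCm38.p6) are shown because the Runx2 count depends on them. Capitals mark the bases from the summit farthest before the start to the last base before it.
Supt3: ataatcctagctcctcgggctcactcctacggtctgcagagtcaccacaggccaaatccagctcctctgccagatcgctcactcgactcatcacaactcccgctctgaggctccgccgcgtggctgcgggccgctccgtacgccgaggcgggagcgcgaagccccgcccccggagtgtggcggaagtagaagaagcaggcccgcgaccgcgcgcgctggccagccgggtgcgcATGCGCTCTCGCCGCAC

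The remaining Runx2 regions were in stimulated Treg alone and lay inside Runx2 but outside Supt3, at 47.1 kb (6.74-fold) and 48.2 kb (8.99-fold) after the first start. They were the weakest of the 16 stimulated Treg regions at these genes, and 2.32% and 27.7% of the list were lower. The −log10 p of the former, 27.3, was below 38.1, the lowest value in the stimulated Tconv list. The promoter window at the first start of Runx2 held no summit in any list. RefSeq's promoter table gives Runx2 only 1 start, so a proximal promoter of this gene was not examined.

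Cbfb (chromosome 8, 105170674 to 105217989, plus strand) had 1 region per list, and each lay at its promoter. The summit was 18.8-fold in unstimulated Tconv, 18.9-fold in unstimulated Treg, 11.4-fold in stimulated Tconv and 15.3-fold in stimulated Treg. The summits lay 140, 117, 79 and 75 bp before the start, in the same order. Within its own list, the region stood above 85.6% and 86.7% of unstimulated Tconv and Treg regions, and above 35.6% and 68.4% of stimulated ones. It was the strongest of the regions at these genes in both unstimulated lists, while a Runx1 region was the strongest in both stimulated lists. Ranks in lists of different lengths do not measure a change in binding. One region in each list was also the pattern of 972 other genes.

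The 250 bases before the Cbfb start (chr8:105170424-105170673, plus strand, from RefSeq at GRCm38.p6) are shown as the promoter at which all 4 lists had a summit, with capitals from the first summit to the last.
Cbfb: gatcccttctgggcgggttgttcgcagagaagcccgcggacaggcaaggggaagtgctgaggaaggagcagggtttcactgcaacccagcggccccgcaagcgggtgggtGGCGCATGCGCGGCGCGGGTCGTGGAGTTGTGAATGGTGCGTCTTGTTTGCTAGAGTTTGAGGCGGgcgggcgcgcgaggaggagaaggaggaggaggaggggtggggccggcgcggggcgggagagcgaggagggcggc
Its base composition differed from that of the Runx1 stretch, with 69.2% G or C against 45.6%, and the stretch before Supt3 had 68.8%. Of all promoter windows, 8.21% held a strongest summit of the Tconv list and 8.58% one of the Treg list before stimulation, and 8.01% and 12.7% after it.

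**Figure D3:**
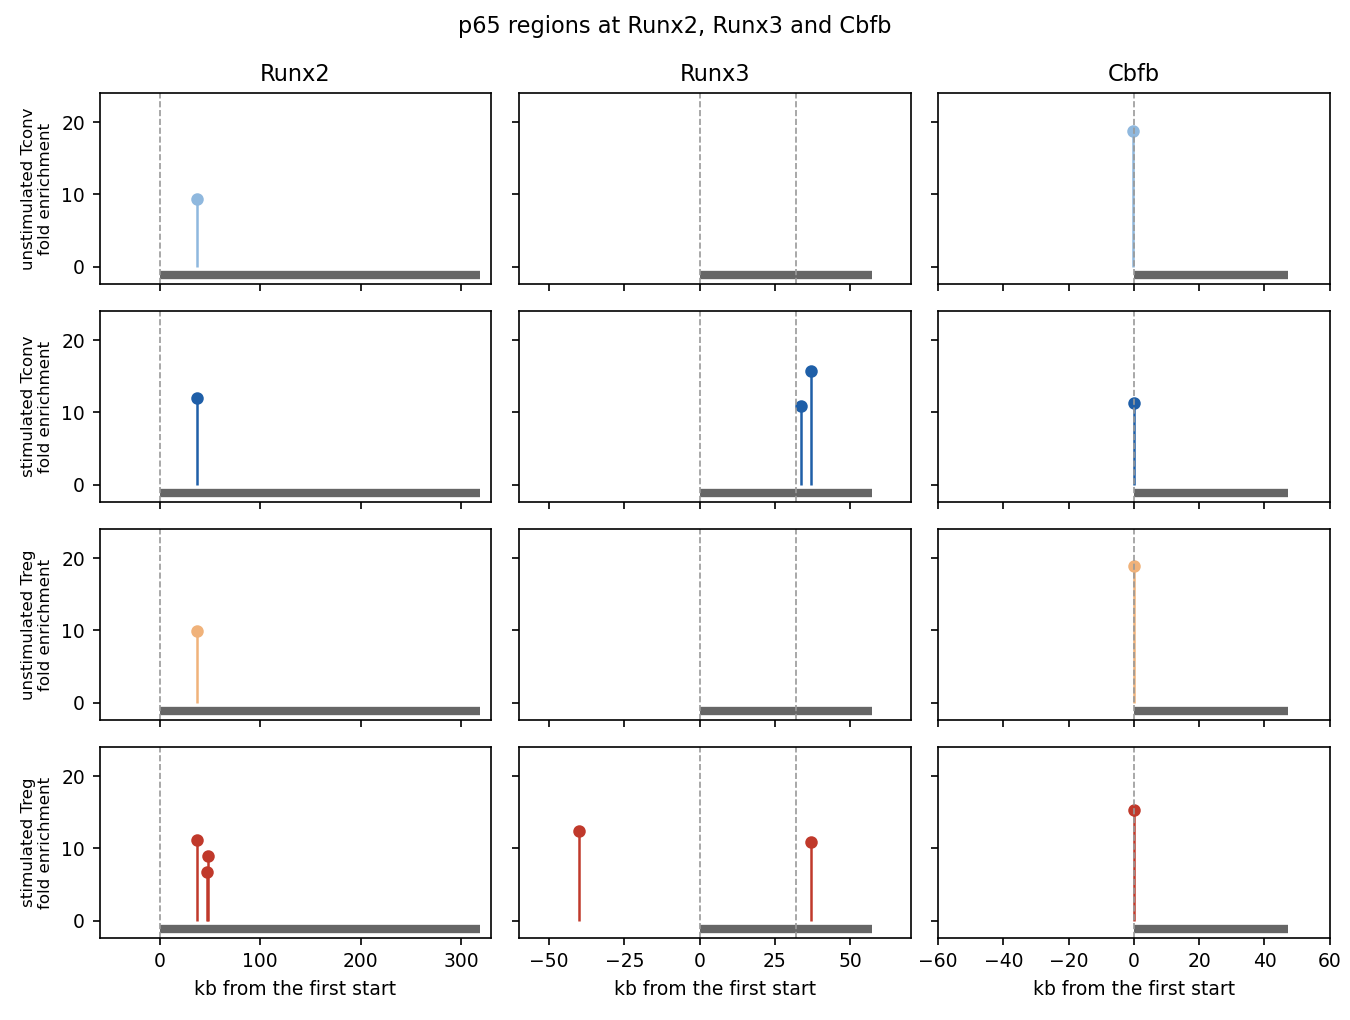
Summits at Runx2, Runx3 and Cbfb (columns) in the 4 lists (rows), by distance in kb from each gene's first start, with height showing fold enrichment, the grey bar the gene body and dashed lines the starts in RefSeq's promoter table. The Runx3 panels of both unstimulated lists are empty, and the Cbfb point sits at the start in every list.

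The windows at the first starts of the 3 Runx genes shared a run of 18 bases that holds the RUNX motif ACCACA, the letters Runx proteins themselves bind, 2 times. No other window of the 21262 held this run on either strand, and 1.5% held ACCACA (either strand) 2 or more times. Because the run was taken from these 3 windows, its absence elsewhere is a description and not a test. The planned search covered the NF-kB motif alone. The run began at position 27 after the start in Runx1, at position 22 after it in Runx2 and at position −136 in Runx3. It is shown with flanking bases, and capitals mark the shared run (chr16:92826025-92826054, minus strand; chr17:44814583-44814612, minus strand; chr4:135120503-135120532, plus strand).
Runx1: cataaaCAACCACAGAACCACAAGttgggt
Runx2: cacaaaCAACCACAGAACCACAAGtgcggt
Runx3: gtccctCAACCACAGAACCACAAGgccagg
Of these 3 windows, that of Runx1 held a p65 summit, in both stimulated lists, and those of Runx2 and Runx3 held none. The Cbfb window did not hold ACCACA.

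The first pair of comparisons asked which regions a stimulated list held that the unstimulated list of the same cells did not. In Tconv, 6 of the 9 stimulated regions at these genes had no unstimulated counterpart (66.7%, 95% Wilson interval 35.4 to 87.9%), against 67.4% of all regions of the list. They were 4 Runx1 regions and both Runx3 regions. In Treg it was 12 of 16 (75.0%, 50.5 to 89.8%), against 77.3% of all regions, made up of 8 Runx1, 2 Runx2 and 2 Runx3 regions. Both shares were close to the background of their list. In the other direction, each of the 3 unstimulated Tconv and 4 unstimulated Treg regions had a stimulated counterpart, where 36.3% and 21.6% of all regions had none.

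Between the cell types after stimulation, 8 of the 16 Treg regions at these genes had no Tconv counterpart (50%, 28.0 to 72.0%), against 49.3% of all stimulated Treg regions. This share too was near the background, and it comprised 5 Runx1, 2 Runx2 and 1 Runx3 regions. The 8 regions without a Tconv counterpart ran from 6.74 to 12.3-fold, with a median of 10.5, and the 8 with one from 10.9 to 21.1-fold, with a median of 16.03. Over the whole list the medians were 9.22 and 15.8. Of the 8 Treg regions without a counterpart, 1 was below the lowest −log10 p of the Tconv list. Without stimulation, 1 of 4 Treg regions had no Tconv counterpart (25.0%, 4.56 to 69.9%), against 20.6% of all, and each of the 3 Tconv regions had a Treg counterpart, where 13.9% of all had none.

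**Figure D4:**
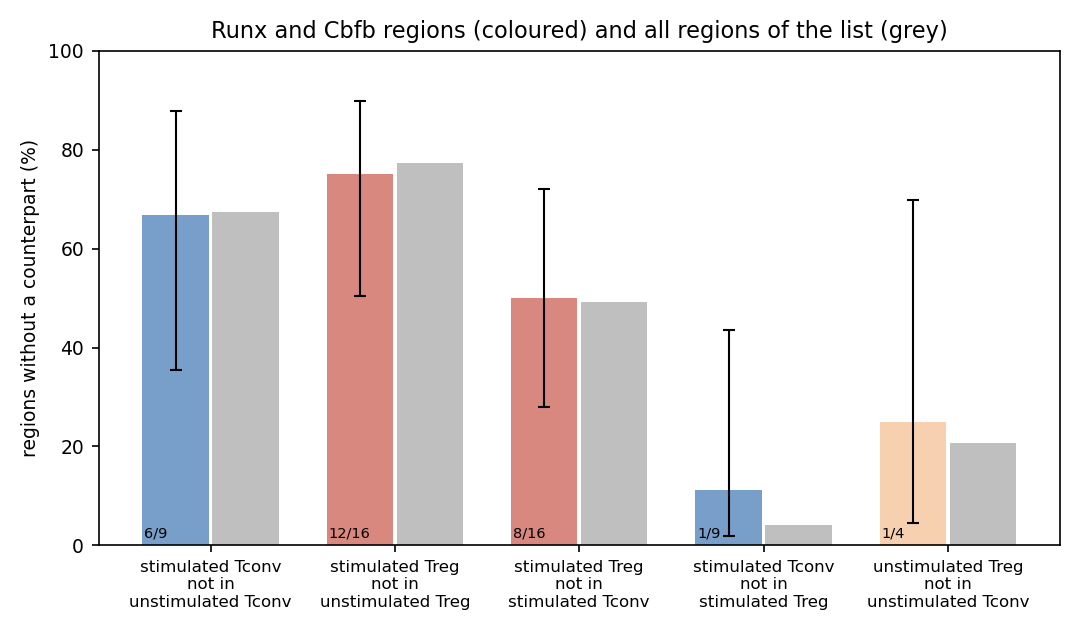
Percent of regions in one list without a counterpart in another, for regions at the Runx and Cbfb genes (coloured bars, with 95% Wilson intervals that cover counting error over regions, and counts at the base) and for all regions of the list (grey bars). In each pair the grey bar lies within the interval of the coloured bar, as for the 8 of 16 stimulated Treg regions beside 49.3% of all.

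In height, the regions at these genes ranged from above 2.32% to above 86.7% of their list, and their medians were near the list medians. Before stimulation, their median fold enrichment was 9.42 in Tconv and 8.71 in Treg, against 8.49 and 8.30 for all regions. After stimulation it was 11.8 in Tconv and 11.6 in Treg, against 12.8 and 11.5. The highest value was 21.1-fold, at Runx1 in stimulated Treg, where 82.3% of that list was lower and the strongest region of the list was 101.6-fold. A position at most 1 kb from an end of a protein-coding gene was found for 3 of the 16 stimulated Treg regions (18.8%, against 32.9% of all) and 3 of the 9 stimulated Tconv regions (33.3%, against 39% of all). Before stimulation it was found for 2 of 4 in Treg (70.4% of all) and 2 of 3 in Tconv (72.2% of all). The 3 stimulated ones were the same sites in both cell types, namely the distal promoter of Runx1, the Supt3 start inside Runx2 and the Cbfb promoter.

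**Figure D5:**
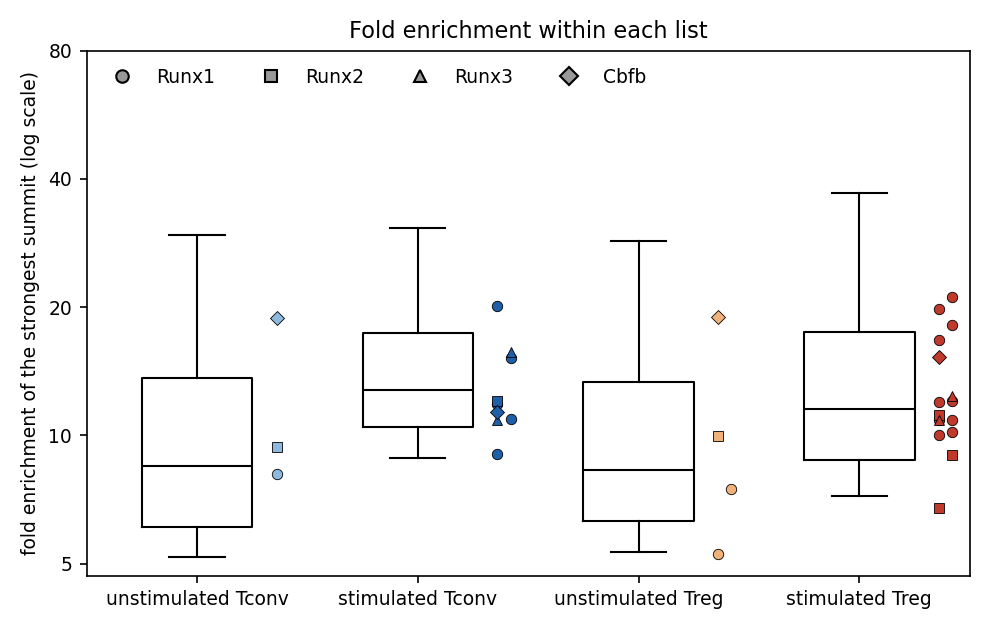
Fold enrichment of the strongest summit of each region, on a log scale. Boxes show the quartiles and median of all regions of a list with whiskers at the 5th and 95th percentiles, and symbols show regions at the 4 genes. Of the 32 symbols, 2 lie below the lower whisker and 0 above the upper one.

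Genes of proteins that work with Runx were set beside these, from lists drawn up with earlier results of these data known. The fold given for such a gene is its highest in that list. Folds of a gene in different lists may therefore be of different sites. Of 24 Runx cofactor genes, 9 had a region in each unstimulated list, 8 in the stimulated Tconv list and 13 in the stimulated Treg list. These are 37.5% of the list before stimulation in either cell type, 33.3% in stimulated Tconv and 54.2% in stimulated Treg, beside 12.5% (Tconv) and 13.4% (Treg) of all protein-coding genes before stimulation and 16.5% and 25.2% after it. The strongest in stimulated Treg were Ccnd3, which encodes cyclin D3 (78.2-fold, and 52.4-fold in stimulated Tconv), Kmt2a, a histone H3 lysine methyltransferase gene (31.1-fold and 34.0-fold), and Tle4, a Groucho corepressor gene (22.5-fold and 22.8-fold). Of the 33 stimulated Treg regions near cofactor genes, 18 (54.5%) had no stimulated Tconv counterpart, beside 49.3% of all, and 26 (78.8%) had no unstimulated Treg counterpart, beside 77.3% of all.

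Of 22 partner and target genes of Runx in T cells, 2 had a region in Tconv and 3 in Treg before stimulation, and 9 and 13 after it. As shares of the list these are 9.09% and 13.6% before and 40.9% and 59.1% after stimulation, beside 12.5% and 13.4% before and 16.5% and 25.2% after it over all genes. The strongest in stimulated Treg were Ets1, a transcription factor that binds DNA together with Runx1 (49.9-fold, and 27.3-fold in stimulated Tconv), Itgae, the gene of the integrin chain CD103 (35.5-fold and 9.21-fold), and Ifng (34.7-fold and 28.0-fold). The 34.7-fold region of Ifng lay 21.8 kb outside the gene. Ets1 had 17 stimulated Treg regions, more than Runx1. Of the 43 stimulated Treg regions near these genes, 41 (95.3%) had no unstimulated Treg counterpart, beside 77.3% of all regions and 75.0% at the Runx and Cbfb genes themselves, and 22 (51.2%) had no stimulated Tconv counterpart, beside 49.3% of all.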

How the data were processed

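The submitters' processing notes name MACS2 2.1.1.20160309, BWA 0.7.15-r1140 and Trim Galore 0.4.1, with build mm10. Each of the 4 groups has 1 peak list, which its name describes as pooled replicates, without blacklisted regions, filtered for reproducibility (IDR). Not given in the sources used here is how input entered the calling. The fold enrichment of each summit is a ratio to local background as the authors deposited it. The −log10 p of each summit is likewise the authors' deposited value. No read numbers are given, so depth is unknown, and its part in the length of a list or in its folds was not tested.

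Overlapping entries of a list were merged (at least 1 bp), keeping the strongest summit. A counterpart overlaps by at least 1 bp. Genes were 21883 protein-coding bodies of RefSeq's GRCm38.p6 table, promoter windows came from RefSeq at the same build, and Wilson intervals (95%) cover counting error over regions. Python 3.11.15, pandas 2.3.3 and SciPy 1.17.1 were used. Overlap was tried on shifted copies of stimulated Treg regions. Assignment was checked against a direct search for a sample of the real stimulated Treg regions. All members were described. Of each further gene list, the 3 genes with the highest fold in stimulated Treg were named, and each member was set beside the genes with equal region counts. Members and lists were chosen with earlier results of these data known.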

Additional observations from a re-analysis of the deposited data

How the results depend on the processing

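Each group has 1 list made from both libraries, so no replicate could be left out and no test between groups was made. No paired analysis was possible because each group has 1 peak list and none per library. Of 64 counts from 8 results, each recomputed under up to 9 alternatives, 57 stayed within 1.5 times of the count reported. Shares were not part of this rule. Requiring overlap of 50% of both regions, 15 of 16 stimulated Treg regions lacked an unstimulated counterpart (93.8%, against 81.2% of all). A common −log10 p cut-off of 38.1 left 1 region in unstimulated Tconv and 2 in unstimulated Treg. There, 88.9% of stimulated Tconv and 86.7% of stimulated Treg regions lacked an unstimulated counterpart, against 81.9% and 87.4% of all. Of the 2 unstimulated Treg regions, 1 lacked a Tconv counterpart, against 19.1% of all. With equal list lengths (the 2961 strongest regions of each list), both stimulated lists held 4 regions of the Runx and Cbfb genes. Unstimulated Tconv held 3 and unstimulated Treg 4, so the counts of the lists were nearly equal there. Of the 4 in each stimulated list, 3 in Tconv and 2 in Treg had no unstimulated counterpart, where 63.7% and 76.1% of all regions had none. In stimulated Treg, 1 had none in stimulated Tconv, where 30.1% of all had none. All lists but unstimulated Tconv are shorter here by construction. The alternative that gives a summit inside a pair of genes to the one with the nearer end was added after the data were seen. It took the Runx2 region at the start of Supt3 out of all 4 lists and left 15 regions in stimulated Treg.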

Other observations

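Downstream of Runx3, the nearest region belonged by distance to Clic4, a chloride intracellular channel family gene. Its summit lay 24.9 kb from the end of Runx3 and 11.1 kb from Clic4. It was listed in both stimulated lists, with 16.7-fold in Tconv and 24.03-fold in Treg, and in neither unstimulated list. In each of these stimulated lists, its value was above those of both regions assigned to Runx3.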
